A study of Homo sapiens with 10 samples.

Results

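The human genes named ZNF with a 3-digit number encode a large named group of zinc finger proteins. They were taken as every gene whose array annotation symbol is ZNF, 3 digits and at most a final letter A to C, with pseudogenes excluded. This gave 415 of the 14884 genes with a named row, out of 453 protein-coding genes of that form in the RefSeq annotation of GRCh38.p14. Levels were log2 expression values, 1 per clone, and for the 15 genes that had more than 1 row the brightest row on average was taken. The cells were PC-3, an established human line from a bone metastasis of prostate cancer, grown as clonal isolates after transfer of a p-Lenti vector and selection with blasticidin (blastocydin in the labels). The 5 CENPU clones (numbers 1, 4, 5, 7 and 13) carried the vector with CENPU, the gene of a centromere protein, and the 5 control clones (numbers 1 to 5) carried it empty, with 1 array for each. Both groups thus shared the vector, the selection and the growth from a single isolate, and which promoter drives CENPU was not stated in the labels.

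Most proteins of this family bind DNA through tandem C2H2 zinc fingers, small folds in which cysteine and histidine residues hold a zinc ion. Many also carry a KRAB domain, which recruits the corepressor TRIM28 and, through it, the histone methyltransferase SETDB1, HP1 proteins and the NuRD complex, so that transposable elements and some gene promoters are packed into heterochromatin. A smaller number lack KRAB and act as activators, or bind RNA, ribosomes or spindle proteins. The KRAB genes arose by tandem duplication and lie largely in clusters on chromosome 19, where 207 of the 415 were found.

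The targeted gene was high where the labels place it. CENPU read 8.70 to 9.84 in the CENPU clones and 5.78 to 6.56 in the control clones. Of 13 markers of PC-3 and prostate epithelium 8 had a named row, and 2 of these were higher in CENPU clones. They were the prostate homeobox gene HOXB13, at 11.3 against 10.9, and the intermediate filament gene VIM, at 8.52 against 7.79 (limma adjusted p = 0.0323 and 0.00446). The epithelial gene EPCAM had a log2 difference of 0.85 and did not pass (limma adjusted p = 0.0839). The keratin gene KRT18 averaged 10.6 in CENPU and 10.8 in control clones, and KRT8 6.73 and 6.76, and neither passed. KLK3, KLK2 and FOLH1, prostate genes low in this line, averaged 3.06 to 5.59 in CENPU clones and 2.97 to 5.61 in controls and did not pass. Of 12 markers of other cell types 4 had a named row (GFAP, ALB, CD14 and PECAM1) and 0 of them passed the test (0 at an unadjusted p under 0.05, limma), with averages over these 4 of 4.71 to 5.16 in CENPU clones and 4.77 to 4.92 in control clones. Control clone 2 and CENPU clones 7 and 13 lie at the ends of a trend in which long genes read higher, so results are also given without these 3 clones. They also held the extremes of the family genes called higher below. The median deviations of those genes were 0.69 in CENPU 13, 0.49 in CENPU 7 and -0.63 in control 2. Leaving these clones out therefore tends to shrink the differences of called genes, and those fits are no independent check. In RNA of whole cultures, fewer cells that transcribe a gene and less RNA per cell cannot be told apart.

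The family as a whole was no more often called different than other genes, but its differences leaned upward. Of the 415 genes 21 were higher in CENPU clones, 5.06%, against 5.31% of all named genes, and 11 were lower, 2.65%, against 4.79% of all named genes (limma, Benjamini-Hochberg adjusted p under 0.05 over all named rows). The median log2 difference was 0.10 in the family and -0.02 over all named genes. A log2 difference above 0 was found in 278 of 415 genes, 67.0%, compared with 46.9% of all named genes. At an unadjusted p under 0.05 (limma), 90 of the 415 were higher and 33 lower, against 2198 and 1949 of the 14884 named genes. That background is 14.8% and 13.1%, and the family's share was above it for higher and below it for lower genes. All CENPU clones lay above all controls for 16 genes and below them for 14, 3.86% and 3.37%, against 4.54% and 5.19% of all named genes. Differences in single genes were small, from -0.76 in ZNF319 to 1.32 in ZNF280C, which did not pass.

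**Figure D1:**
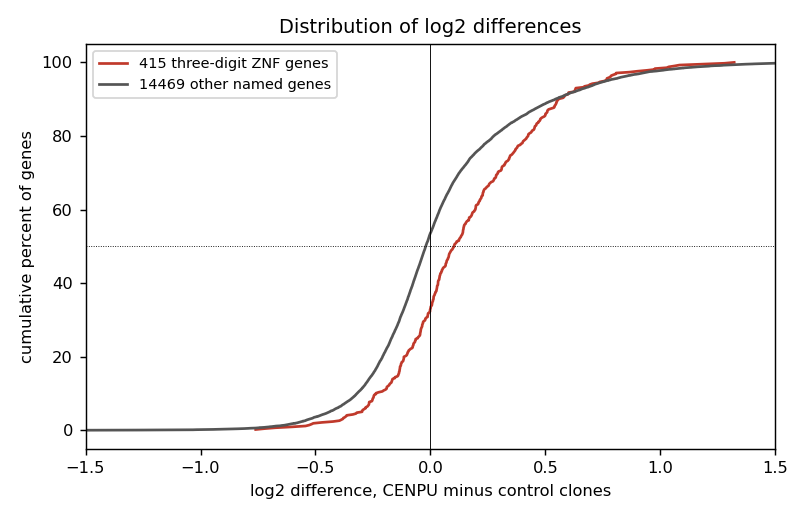
Cumulative percent of genes (vertical axis) by log2 difference between 5 CENPU and 5 control clones (horizontal axis) for the 415 family members in red and the 14469 other named genes in grey. The red curve lies to the right of the grey over the middle of the range, with medians of 0.10 and -0.02, and the curves meet at the upper end.

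The count of calls changed when single clones were left out, and whether this goes beyond the smaller number of clones was not tested. In place of 21 higher and 11 lower with all clones, the fit without CENPU 1 gave 54 and 16 (9.83% and 6.77% of all named genes) and that without CENPU 4 gave 32 and 12 (7.73% and 5.53%). Dropping CENPU 5 left 4 and 6 (3.02% and 2.79%), CENPU 7 left 2 and 6 (2.22% and 2.40%), and CENPU 13 left 3 and 6 (2.77% and 2.61%). Among the controls, dropping clone 1 left 14 and 11 (4.94% and 4.62%), clone 2 left 3 and 4 (2.30% and 2.31%) and clone 3 left 6 and 7 (2.97% and 2.54%). Dropping control 4 left 3 and 4 (2.00% and 2.12%), and control 5 left 6 and 6 (2.90% and 2.71%). The higher counts of all named genes rose and fell in the same fits as those of the members. Without control 2, CENPU 7 and CENPU 13 together 1 was higher and 7 lower, where 1.40% and 1.75% of all named genes were called, and 0 of the 21 and 4 of the 11 were among them. The family median in that fit was 0.053. The balance of directions moved with array scaling, with 20 members higher and 17 lower when arrays were quantile normalized (5.07% and 6.40% of all named genes), and 10 higher and 13 lower when arrays were centred on their medians (3.93% and 5.09%). Members longer than the median protein-coding gene gave 14 higher and 1 lower of 173, and the rest 7 higher and 10 lower of 242. Other protein-coding genes gave 542 higher and 191 lower of 5785 above that span, and 179 higher and 445 lower of 5716 at or under it. With the trend with span removed from each array, over protein-coding genes, 23 members were higher and 15 lower (6.50% and 6.52% of the genes tested), and 26 of the 32 calls were kept. The family median in that fit was 0.052, and that of all genes tested -0.049.

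**Figure D2:**
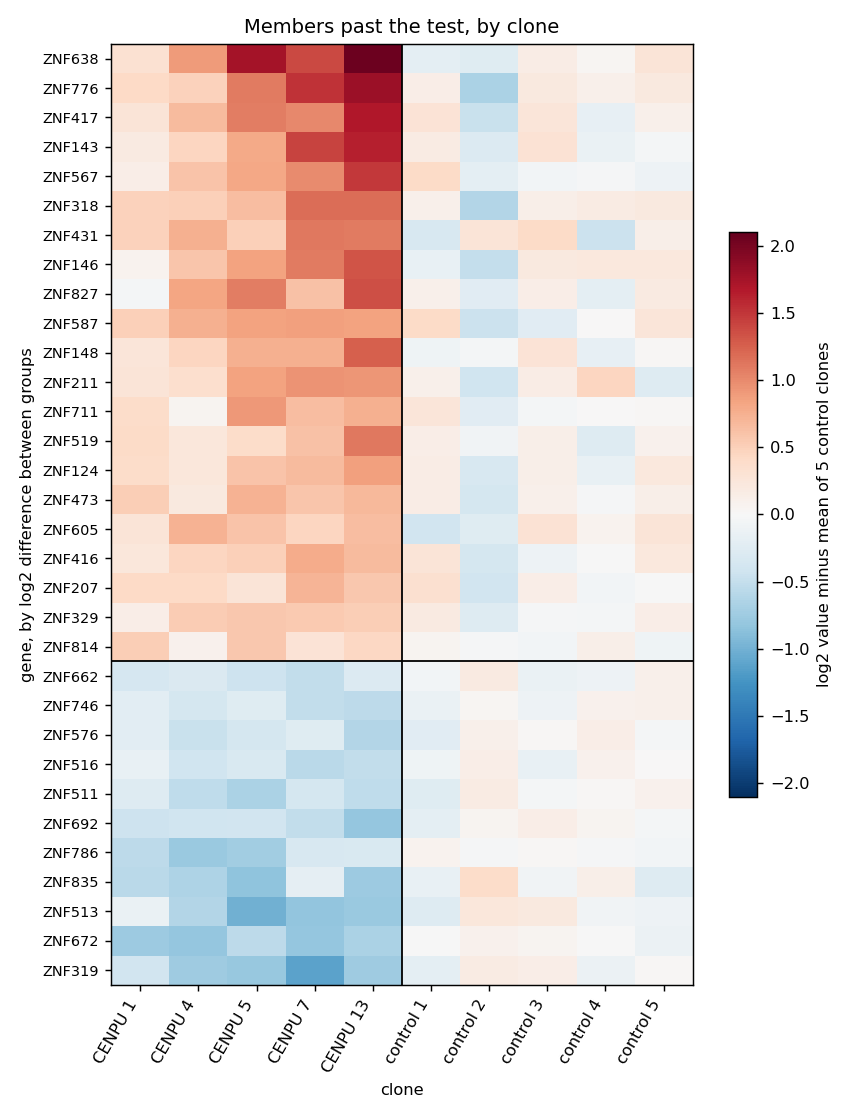
Log2 value of each clone (columns) minus the mean of the 5 control clones for the 32 members that passed (rows, ordered by log2 difference, colour scale in log2 units). The upper rows are deepest red in CENPU 13 and pale in CENPU 1, and the 11 lower genes are pale to mid blue in the CENPU clones.

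Members with roles in RNA, ribosomes, spindle, repair or the cytoskeleton included the largest difference that passed. In this list of 17 genes 16 were measured: 3 rose, 0 fell (0 at an unadjusted p under 0.05, limma) and 13 were not called. These stand beside 5.31% higher and 4.79% lower of all named genes. The median log2 difference of the 16 was 0.39. Their median span was 32653.5 bases, against 27054 in protein-coding genes outside the family, and long genes read higher in these data. ZNF638, a nuclear protein that binds RNA and DNA and takes part in silencing unintegrated retroviral DNA, read 4.93, 5.49, 6.35, 5.98 and 6.66 in CENPU clones 1, 4, 5, 7 and 13. In control clones 1 to 5 it read 4.40, 4.34, 4.75, 4.64 and 4.88. The groups did not overlap, and CENPU 1 lay nearest to the controls. ZNF638 was 2.43-fold higher, a log2 difference of 1.28 with a standard error of 0.28 (limma adjusted p = 0.0180), and passed in each of the 10 fits that left out 1 clone. It differed by 0.92 without the 3 clones (limma adjusted p = 0.107).

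ZNF318, which directs the splicing of immunoglobulin heavy chain transcripts in B cells, rose by 0.80 on the log2 scale, from 7.08 ± 0.35 (SD, n = 5) in controls to 7.87 ± 0.35 (SD, n = 5) in CENPU clones. It read 7.19, 6.46, 7.20, 7.26 and 7.28 in control clones 1 to 5, so that control 2 stood far below the others. Its log2 difference was 0.39 without the 3 clones (limma adjusted p = 0.0700). ZNF207, also called BuGZ, binds the checkpoint protein BUB3 and promotes its loading on kinetochores. It read 9.51, 9.50, 9.36, 9.80 and 9.66 in CENPU clones 1, 4, 5, 7 and 13 and 9.42, 8.68, 9.23, 9.03 and 9.09 in control clones 1 to 5. The groups overlapped at CENPU 5 and control 1. ZNF207 rose by 0.48 (limma adjusted p = 0.0498), at the edge of the threshold, and the call was lost in 8 of 10 fits that left out 1 clone. ZNF106, an RNA-binding protein of splicing, had a log2 difference of 1.08 and did not pass (limma adjusted p = 0.0639).

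Among members known as activators or chromatin partners, 4 of 26 rose, 1 fell and 21 were not called, against 5.31% higher and 4.79% lower of all named genes, and their log2 differences had a median of 0.25. Their median span was 56632.5 bases, against 27054 in protein-coding genes outside the family. Among such outside genes longer than the median protein-coding gene, 9.37% were higher and 3.30% lower. Whether role or span goes with the counts was not tested. ZNF143 activates promoters of both protein-coding and small nuclear RNA genes. It read 6.04, 6.31, 6.65, 7.27 and 7.48 in CENPU clones 1, 4, 5, 7 and 13 and 6.02, 5.56, 6.16, 5.71 and 5.81 in control clones 1 to 5. CENPU 7 and CENPU 13 were highest, and CENPU 1 lay within the control range. The log2 difference of ZNF143 was 0.90 with a standard error of 0.25 (limma adjusted p = 0.0455), and 0.41 without the 3 clones (limma adjusted p = 0.220). ZNF148, which binds GC-rich promoter elements, rose by 0.69, ZNF827, which brings NuRD to telomeres, by 0.77, and ZNF711, a partner of the demethylase PHF8, by 0.55. The groups of all 4 genes that rose overlapped. ZNF516, a factor of brown fat gene expression, was the member of this list that fell, by 0.40, from 4.92 ± 0.12 (SD, n = 5) in controls to 4.52 ± 0.16 (SD, n = 5) in CENPU clones. Without the 3 clones 0 of these 5 genes passed in limma, with log2 differences of 0.41 to 0.56 for ZNF143, ZNF148 and ZNF827, 0.39 for ZNF711 and -0.27 for ZNF516.

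Members chosen for described targets, most of them KRAB proteins, gave 2 higher, 1 lower and 16 not called of 19 (5.31% and 4.79% of all named genes), around a median log2 difference of 0.14. ZNF587 and ZNF417 are close paralogs whose KRAB proteins bind and repress endogenous retroviruses of the HERV-K group, and their near-identical sequences can share probe signal, so each value is uncertain as a measure of its own gene. ZNF587 read 5.12, 5.37, 5.47, 5.49 and 5.47 in CENPU clones 1, 4, 5, 7 and 13 and 5.04, 4.17, 4.40, 4.64 and 4.89 in control clones 1 to 5. The groups did not overlap, and CENPU 1 lay closest to control 1. It rose by 0.76 with a standard error of 0.16 (limma adjusted p = 0.0154) and passed in all 10 fits that left out 1 clone. ZNF417 read 5.73, 6.14, 6.53, 6.48 and 7.15 and 5.76, 4.99, 5.72, 5.29 and 5.57 in the same order, with CENPU 1 just inside the control range. It rose by 0.94 (limma adjusted p = 0.0310) and lost its call in 7 of those 10 fits. Without the 3 clones ZNF587 differed by 0.58 and ZNF417 by 0.55 (limma adjusted p = 0.0899 and 0.155). ZNF746, also called PARIS, a KRAB repressor of the mitochondrial regulator PPARGC1A, fell by 0.38 (limma adjusted p = 0.0320), and by 0.27 without the 3 clones (limma adjusted p = 0.229). ZNF808, which silences a family of endogenous retroviral elements, had a log2 difference of 0.76 and did not pass (limma adjusted p = 0.0521), though its groups did not overlap.

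Among the other members that passed, ZNF776 had the largest rise, 2.09-fold. It read 6.38, 6.46, 7.06, 7.48 and 7.77 in CENPU clones 1, 4, 5, 7 and 13 and 6.11, 5.31, 6.18, 6.08 and 6.18 in control clones 1 to 5. Its groups did not overlap, control 2 was far below the other controls, and the log2 difference of 1.06 (limma adjusted p = 0.0327) was 0.50 without the 3 clones (limma adjusted p = 0.128). ZNF473, the zinc finger subunit of the U7 particle that processes histone transcripts, rose by 0.54, and its groups did not overlap either. ZNF431 rose by 0.79, ZNF519 by 0.55 and ZNF124 by 0.55, all without overlap of the groups. The other 7 higher genes included ZNF567 (0.81), ZNF146 (0.78), which consists of zinc fingers without a KRAB domain, and ZNF605 (0.54). Without the 3 clones the log2 differences of ZNF473, ZNF431, ZNF519, ZNF124, ZNF567, ZNF146 and ZNF605 ran from 0.32 to 0.65, and 0 of them passed in limma.

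The genes that fell had smaller differences, from -0.38 to -0.76, and narrow groups at the top of the list. ZNF672 read 8.09, 8.04, 8.31, 8.05 and 8.20 in CENPU clones 1, 4, 5, 7 and 13 and 8.85, 8.95, 8.91, 8.86 and 8.74 in control clones 1 to 5. Every CENPU clone lay below every control, with SDs of 0.11 in CENPU and 0.08 in control clones (n = 5 each). It fell by 0.72 with a standard error of 0.09 (limma adjusted p = 0.00218), the smallest p in the family, and by 0.69 without the 3 clones (limma adjusted p = 0.0137). ZNF319 read 6.65, 6.30, 6.24, 5.93 and 6.30 and 6.85, 7.21, 7.18, 6.92 and 7.07 in the same order, and fell by 0.76 (limma adjusted p = 0.00697), or by 0.61 without the 3 clones (limma adjusted p = 0.0427). ZNF786 read 7.25, 7.02, 7.07, 7.45 and 7.47 and 7.86, 7.78, 7.82, 7.77 and 7.74, with 5 nearly equal controls. It fell by 0.54 (limma adjusted p = 0.0121), and by 0.69 without the 3 clones (limma adjusted p = 0.0123).

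ZNF692, a factor that binds the response element of an AMP analogue in metabolic gene promoters, fell by 0.52 (limma adjusted p = 0.0144), from 9.08 ± 0.13 (SD, n = 5) to 8.56 ± 0.17 (SD, n = 5). ZNF672, ZNF319, ZNF786 and ZNF692 passed in all 10 fits without 1 clone, so 4 of the 11 lower genes and 2 of the 21 higher genes did. ZNF511 and ZNF662 fell by 0.47 and 0.38 without overlap of the groups. ZNF513, which is needed in photoreceptors, fell by 0.68, ZNF835 by 0.60 and ZNF576 by 0.39, and the groups of these overlapped. Of ZNF692, ZNF511, ZNF662, ZNF513, ZNF835 and ZNF576, ZNF835 was the 1 that passed without the 3 clones, at -0.59 (limma adjusted p = 0.0350). The 5 brightest rows of the family belonged to ZNF358 (log2 difference 0.29, not passed at limma adjusted p = 0.0578), ZNF511, ZNF581 (-0.12, not passed), ZNF207 and the developmental repressor gene ZNF503 (-0.25, not passed).

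Partners through which KRAB proteins act moved in both directions. Of 40 listed genes 32 were measured, and 4 were higher (12.5%, against 5.31% of all named genes), 3 lower (9.38%, against 4.79%) and 25 not passed, with a median log2 difference of 0.24. Their median span was 42594.5 bases, against 27054 in protein-coding genes outside the family. TRIM28 itself read 11.37, 11.31, 11.11, 10.88 and 10.90 in CENPU clones 1, 4, 5, 7 and 13 and 11.04, 11.32, 11.15, 11.34 and 11.24 in control clones 1 to 5. Its groups overlapped, though CENPU 1 lay above all controls and CENPU 7 and CENPU 13 below them. The log2 difference of -0.10 did not pass (limma adjusted p = 0.609) and was 0.073 without the 3 clones. SETDB1 was not analysed here. CHD3, the NuRD remodeller that binds TRIM28, rose by 0.88 (limma adjusted p = 0.00350), without overlap of the groups, and by 0.88 without the 3 clones (limma adjusted p = 0.0104). ATRX, which deposits histone variants at repeats, rose by 1.30, the HP1 gene CBX5 by 0.85, and PPHLN1, a subunit of the HUSH silencing complex, by 0.60. The histone methyltransferase gene SUV39H1 fell by 0.63, UHRF1, which maintains DNA methylation, by 0.53, and DAXX, the partner of ATRX, by 0.29. Without the 3 clones 1 of these genes was higher, CHD3, and 0 were lower in limma, where 1.40% and 1.75% of all named genes were called. At an unadjusted p under 0.05 (limma) it was 6 and 5 of the list, and no share of all named genes is given there. The higher count was 8 without CENPU 1, where 9.83% of all named genes were higher. It was 1 without CENPU 7, control 2, control 3 or control 4 (2.00% to 2.97% of all named genes). In the other fits without 1 clone it was 3 to 6 (2.77% to 7.73%). The lower count was 0 without CENPU 7, CENPU 13, control 4 or control 5, where 2.12% to 2.71% of all named genes were lower. It was 1 without CENPU 5 or control 2 (2.79% and 2.31%), and 2 or 3 in the others (2.54% to 6.77%).

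By place in the genome, chromosome 19 held 11 of the 21 higher and 2 of the 11 lower genes, with a median log2 difference of 0.15 over its 207 members. These were 5.31% and 0.966% of its members, against 5.31% and 4.79% of all named genes. The 208 members elsewhere gave 10 higher and 9 lower, 4.81% and 4.33%, and a median of 0.07. Members were grouped into runs of neighbours, broken where more than 5 protein-coding genes without a zinc finger name lay between them. There were 9 runs of at least 8 members, 7 of them on chromosome 19. The run from ZNF787 to ZNF446, at the end of the long arm, had 47 members and held 7 of the 21 higher genes, 14.9% of its members against 5.31% of all named genes, and 1 lower gene, ZNF835. The 7 were ZNF416, ZNF211, ZNF776, ZNF587, ZNF814, ZNF417 and ZNF329, of which ZNF587, ZNF814 and ZNF417 stood next to each other in the family's order. ZNF587 and ZNF417, which can share probe signal, are counted here as separate genes. The run was singled out after its values were seen and gets no test.

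ZNF211 rose by 0.67 on the log2 scale, ZNF416 by 0.53, ZNF329 by 0.46 and ZNF814 by 0.38, all with overlap of the groups. The median log2 difference over the 47 was 0.22, which did not set this run apart. It was 0.39 from ZNF317 to ZNF846, 0.25 from ZNF577 to ZNF331 and 0.23 from ZNF653 to ZNF791. The other runs of at least 8 members had medians from -0.04 to 0.14. By clone, the median deviation from the mean of all 10 clones was -0.04, -0.06, 0.13, 0.21 and 0.26 for CENPU clones 1, 4, 5, 7 and 13. Control 2 stood at -0.22, and the other controls between -0.08 and 0.01. The run's median genomic span was 13182 bases, shorter than the 27054 of protein-coding genes outside the family. The higher count in the run was 9 without CENPU 1, 12 without CENPU 4 and 7 without control 1. It was 1 without CENPU 5, CENPU 7, CENPU 13, control 2 or control 3, and 2 without control 4 or control 5. It was 0 in limma without the 3 clones together (7 at an unadjusted p under 0.05). Of all named genes 2.00% to 9.83% were higher in the fits without 1 clone, and 1.40% without the 3 clones.

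**Figure D3:**
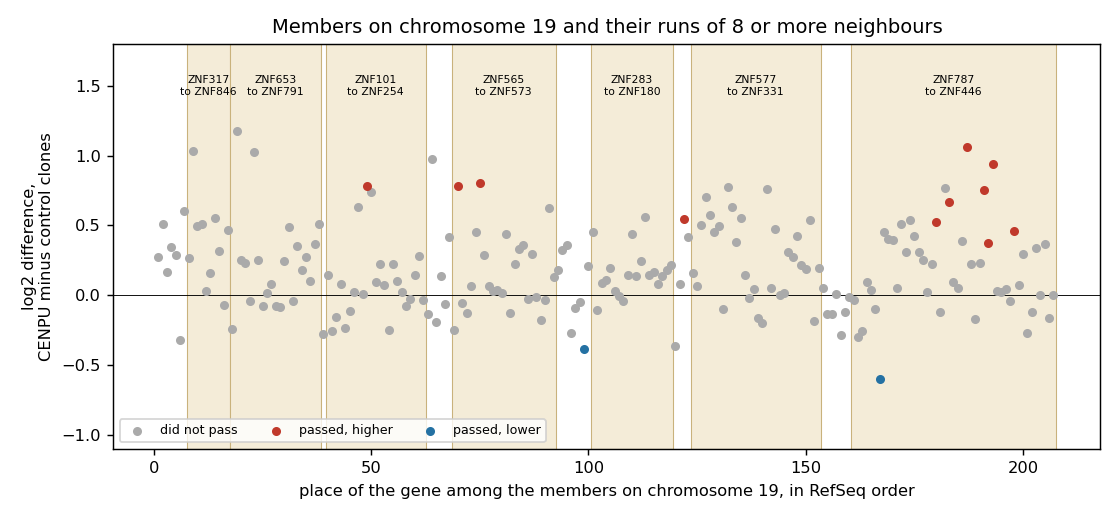
Log2 difference between CENPU and control clones (vertical axis) for each of the 207 members on chromosome 19, placed by their order along the chromosome (horizontal axis, rank and not distance), with runs of 8 or more neighbours shaded. Red points passed as higher and blue as lower, and 7 of the 11 red points lie in the rightmost run.

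Promoter sequences were read from RefSeq (GRCh38.p14) for the 353 members with an entry, as windows of 300 bases from 250 before to 50 after the first listed start. The stretches here are the 160 bases before the start of 4 neighbours of that run that rose, shown because they share short motifs. ZNF329, the other higher gene of the run with an entry, had neither motif, and ZNF211 and ZNF417 were not analysed here. Capitals mark ACTACA followed after 3 bases by CCCA, the core of the element bound by ZNF143 and its partners, and ACTTCCGG, the reverse complement of the ETS factor motif CCGGAAGT, which in ZNF416 lies outside the stretch. They are ZNF776 at chr19:57746655-57746814 (plus strand), ZNF587 at chr19:57849699-57849858 (plus strand), ZNF416 at chr19:57578912-57579071 (minus strand) and ZNF814 at chr19:57889038-57889197 (minus strand), each written 5′ to 3′ on its own strand.
ZNF776: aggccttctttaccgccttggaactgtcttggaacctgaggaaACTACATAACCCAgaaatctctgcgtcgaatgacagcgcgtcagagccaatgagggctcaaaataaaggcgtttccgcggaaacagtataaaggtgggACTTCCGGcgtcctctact
ZNF587: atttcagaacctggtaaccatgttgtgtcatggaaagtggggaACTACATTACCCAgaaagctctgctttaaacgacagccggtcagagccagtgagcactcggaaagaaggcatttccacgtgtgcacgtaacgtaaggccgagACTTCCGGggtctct
ZNF416: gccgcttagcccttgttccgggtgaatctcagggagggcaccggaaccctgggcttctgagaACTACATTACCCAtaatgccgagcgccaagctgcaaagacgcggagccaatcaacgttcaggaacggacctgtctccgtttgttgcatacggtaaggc
ZNF814: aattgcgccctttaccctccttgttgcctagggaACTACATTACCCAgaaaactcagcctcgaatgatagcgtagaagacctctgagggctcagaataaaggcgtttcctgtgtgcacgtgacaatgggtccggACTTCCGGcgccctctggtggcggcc

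The first motif was spelled out after these promoters had been read, and both were searched on both strands, with 0 member promoters in which the motifs overlapped. ACTACA with CCCA was in 18 of 43 promoters of the run, 41.9%, in 24 of 140 promoters of members elsewhere on chromosome 19, 17.1%, and in 15 of 170 of members on other chromosomes, 8.82%. Over all 15843 protein-coding promoters the share was 2.56%. CCGGAAGT was in 24 of the 43, 55.8%, against 17.8% of the 353 members and 6.19% of all protein-coding promoters. Levels within the family are given beside the motifs as a description. The 57 members with the first motif had a median log2 difference of 0.20 with 5 higher and 1 lower, and the 296 without it 0.10 with 12 higher and 9 lower. Of these 5 higher members 4 are the genes whose promoters are printed above, so the count follows largely from how the motif was found. With CCGGAAGT the median was 0.12 with 5 higher and 0 lower (63 members), and without it 0.13 with 12 higher and 10 lower (290 members). The same 4 printed genes are among the 5 higher members with CCGGAAGT, so that count too follows largely from their choice. Of all named genes 5.31% were higher and 4.79% lower. A match describes the letters and shows no bound factor, and tandem copies share their promoters by descent.

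CpG dinucleotides were counted in the same windows. The 10 lower members with an entry held a median of 32.5 in 300 bases, from 24 to 53, the 17 higher members a median of 20.0, from 12 to 33, and both all 353 members and all protein-coding promoters a median of 22.0. Over the 353 members the Spearman correlation of CpG count and log2 difference was -0.05, a description across genes that share arrays. ZNF319 and ZNF672, the members with the largest fall and with the smallest p, held 44 and 26 in 300 bases. The ZNF776 and ZNF587 promoters held 13 and 12, at the low end of the higher members. ZNF638, with the largest rise that passed, held 33. The 160 bases before the starts of ZNF319 (chr16:58000673-58000832 (minus strand)) and ZNF672 (chr1:248838064-248838223 (plus strand)) show the CpG sites in capitals.
ZNF319: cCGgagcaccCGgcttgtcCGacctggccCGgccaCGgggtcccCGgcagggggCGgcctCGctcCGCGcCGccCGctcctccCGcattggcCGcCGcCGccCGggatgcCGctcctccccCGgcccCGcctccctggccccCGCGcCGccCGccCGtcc
ZNF672: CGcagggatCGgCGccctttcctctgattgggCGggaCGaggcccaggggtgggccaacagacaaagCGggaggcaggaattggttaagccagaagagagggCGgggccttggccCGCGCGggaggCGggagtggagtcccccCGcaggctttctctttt

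Much of the spread lay between clones of 1 group. CENPU 13 gave the highest of the 10 values for 150 of the 415 members, 36.1%, where it did so for 20.8% of all named genes. Control 2 gave the lowest value for 104 members, 25.1%, against 20.7% of all named genes. The family's median deviation from the mean of all clones was -0.05, -0.03, 0.04, 0.08 and 0.16 for CENPU clones 1, 4, 5, 7 and 13. For control clones 1 to 5 it was -0.04, -0.10, -0.03, -0.05 and -0.04. CENPU 1 thus lay in the range of the controls, CENPU 4 at its upper edge, and CENPU 5, 7 and 13 above it. The same median over all named genes went the other way in CENPU 7 and CENPU 13, at -0.04 and -0.06.

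**Figure D4:**
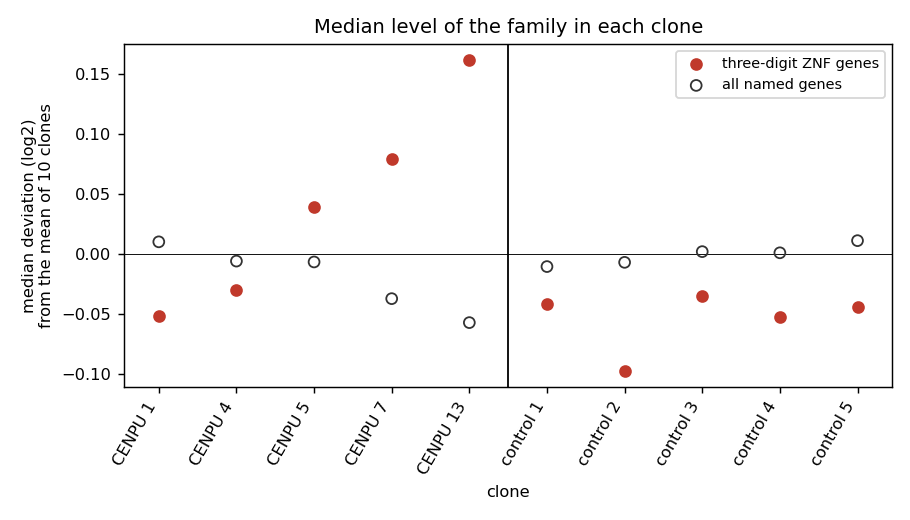
Median deviation from the mean of 10 clones, in log2 units (vertical axis), for each clone (horizontal axis), over the 415 members (red) and all named genes (open). Red points run from -0.05 to 0.16 in the CENPU clones and from -0.10 to -0.03 in the controls, with CENPU 13 highest and control 2 lowest.

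Runs differed in their spread between clones. In the run of 30 members from ZNF577 to ZNF331 the median deviation was 0.80 in CENPU 13, with 27 of 30 members above their mean, and 0.44 in CENPU 7, with 23 of 30. For CENPU clones 1, 4 and 5 it was -0.18, -0.21 and 0.00, and between -0.25 and -0.03 in the controls. The median log2 difference of this run, 0.25, was as large as that of the run at the end of the arm, but 0 of its members passed (limma, with 5 above and 1 below 0 at an unadjusted p under 0.05). Of the genes without a zinc finger name inside the run 2 had a named row, and their median deviation was -0.05 in CENPU 13 and -0.27 in CENPU 7. The run of 10 from ZNF317 to ZNF846 was also highest in these clones, at 0.63 in CENPU 7 and 0.55 in CENPU 13 against -0.26 in CENPU 4 and -0.38 in control 2. The run of 24 from ZNF565 to ZNF573, on the same chromosome, stayed between -0.09 and 0.11 in all clones, and held 2 higher genes. On chromosome 7, the run of 11 from ZNF786 to ZNF775 was -0.14 in CENPU 13 and 0.11 in control 2.

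**Figure D5:**
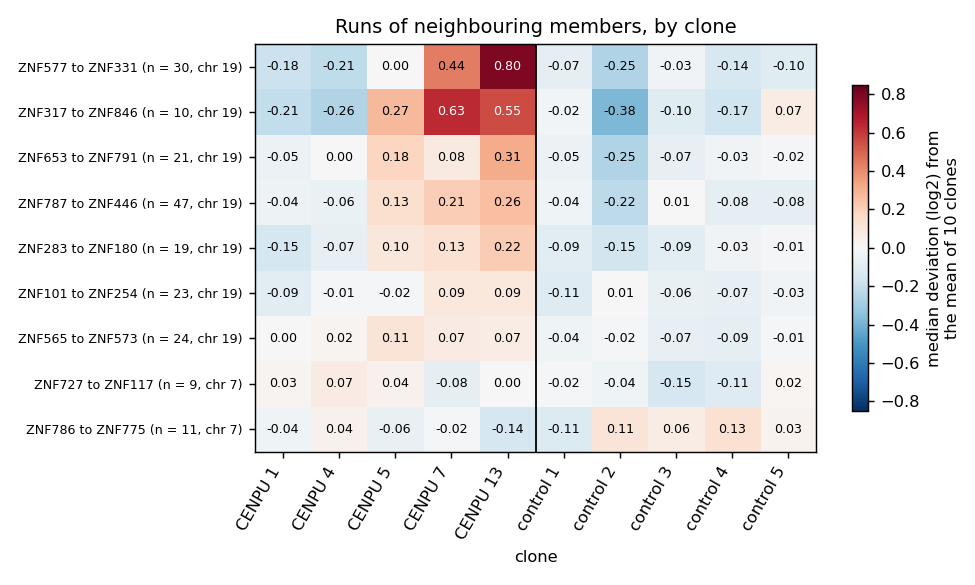
Median deviation from the mean of 10 clones (colour and printed value, log2 units) for the 9 runs of at least 8 neighbouring members (rows, with the number of members and the chromosome) in each clone (columns). The upper rows are red in CENPU 13 and CENPU 7, at 0.80 and 0.44 for ZNF577 to ZNF331, while ZNF565 to ZNF573 stays near 0 throughout.

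Related zinc finger families were set beside these values. The 47 ZNF genes with 1 or 2 digits had a median log2 difference of 0.17 with 1 higher and 0 lower, 2.13% and 0%. For the 26 ZSCAN and ZKSCAN genes it was 0.10 with 2 and 0, 7.69% and 0%. The 17 ZFP genes had 0.12 with 0 and 1, 0% and 5.88%. The 40 ZBTB genes, whose proteins pair zinc fingers with a BTB domain, had 0.09 with 1 and 1, 2.5% each. Of all named genes 5.31% were higher and 4.79% lower. The 29 KLF and SP genes, which encode activators and repressors with few fingers, had a median of -0.02, and 0 passed (limma, with 5 above and 3 below 0 at an unadjusted p under 0.05). These values were not tested against the 0.10 of the 415.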

How the data were processed

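RNA of 5 CENPU and 5 empty-vector PC-3 clones was hybridised to 1-colour Affymetrix arrays, per the labels' protocols. The deposited values were used as log2 expression values, a scale inferred from their range. The submitters' processing notes name Partek and RMA, with no version. RMA normalizes arrays to each other and can remove a shift common to all arrays' genes. Arrays have no read depth, and the number of clones limits precision.

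Each named row was fitted with limma (version 3.58.1, R 4.3.3; lmFit, eBayes, no covariates), with Benjamini-Hochberg adjustment over all named rows and a threshold of 0.05. P-values measure the spread between clones. The fit was tested on simulated data. Members and lists were chosen with earlier results of these data known. The rule named, in each direction, up to 12 called members without overlap by size of difference, the 5 brightest members, all called and up to 4 of smallest p in each role list, and called corepressor genes with TRIM28 and SETDB1. ZNF146, ZNF211, ZNF280C, ZNF329, ZNF416, ZNF513, ZNF567, ZNF576, ZNF605, ZNF814, ZNF835 and the members named in the other observations were chosen after their values were seen, as was the run from ZNF787 to ZNF446. Protein domains were not analysed here. Alternatives changed scaling, dim rows, rows tested or rows per gene, weights, variances, thresholds, a block by clone number, the span trend and the clones included.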

Additional observations from a re-analysis of the deposited data

Results flagged for a closer look

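In groups of 5 clones, 1 clone stood far from the other 4 in 6 cases, by Dixon's criterion at the 95% level, which chance meets in about 1 in 20. The groups examined were 116 of single genes and, beside them, the CENPU and control groups of the family's median deviation. Control 2 was low for ZNF776, at 5.31 on the log2 scale with the other controls at 6.08 to 6.18, and for ZNF318, at 6.46 with the others at 7.19 to 7.28. It was also low for ZNF280C, at 4.34 with the others at 5.16 to 5.34, and high for ZNF581, at 9.86 with the others at 9.41 to 9.52. CENPU 1 was low for ZNF329, at 6.81, with the other CENPU clones at 7.18 to 7.23. The median deviation of the 415 members from the mean of all clones was lowest in control 2, at -0.10.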

How the results depend on the processing

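Against 21 higher and 11 lower members, 4 higher and 3 lower corepressor genes, and 7 higher and 1 lower genes with a median of 0.22 in the run from ZNF787 to ZNF446, which was added after seeing the data, counts moved as follows. Leaving out 1 clone gave 2 to 54 higher and 4 to 16 lower members with a median of 0.085 to 0.12. It gave 1 to 8 higher and 0 to 3 lower corepressor genes, and in the run 1 to 12 higher, 0 to 1 lower and a median of 0.11 to 0.26. In these fits 2.00% to 9.83% of all named genes were higher and 2.12% to 6.77% lower. Quantile normalization gave 17 lower members and a run median of 0.14, and median centring 10 higher members. Testing all rows gave 10 higher members (3.98% of all named genes) and 4 in the run. Array weights gave 46 higher members (8.75%), 7 higher corepressor genes and 11 higher in the run. Ordinary variances gave 2 higher members (1.93%), 1 higher and 1 lower corepressor gene, and 1 higher and 0 lower in the run. A threshold of 0.01 left 0 higher and 2 lower members by limma (0.873% and 0.826%), 1 and 0 corepressor genes, and 0 and 0 in the run, and one of 0.10 gave 49 and 17 members (9.46% and 7.93%), 7 higher corepressor genes and 13 higher in the run. Without control 2, CENPU 7 and CENPU 13 there were 1 higher and 7 lower members, 1 and 0 corepressor genes, and 0 higher in the run with a median of 0.085. With the replicate block by clone number, limma called 0 and 0 members, where 0.148% and 0.222% of all named genes were called. The family median was 0.048. The block fit also called 0 and 0 corepressor genes, and 0 and 0 in the run with a median of 0.10. At an unadjusted p under 0.05 (limma) it gave 29 and 23 members, 5 and 3 corepressor genes, and 3 and 2 in the run. The share of all named genes at that unadjusted threshold is not given for this fit. Numbers 1, 4 and 5 are shared by both groups, with correlations of -0.37, 0.10 and 0.02 between clones of the same number. Control 2 was the best match of CENPU 1 and CENPU 4, and control 5 that of CENPU 5. Whether clones of the same number were handled together cannot be told from these values. The causes were not tested.

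Signs turned for some members and TRIM28. ZNF320 was -0.089 with quantile normalization, -0.0079 with weights, -0.85 with the block, -0.13 without the span trend, -0.85 without the 3 clones and -0.30 to 0.33 without 1 clone. ZNF326 was -0.065, -0.019, -0.55, -0.096 and -0.62 in the same order and -0.16 to 0.19 without 1 clone. With the block and without the 3 clones, ZNF581 was 0.079 and 0.074, TRIM28 0.059 and 0.073, ZNF770 -0.0067 and -0.0084, and ZNF681 -0.45 and -0.48. Without 1 clone ZNF681 was -0.072 to 0.59 and ZNF562 -0.30 to 0.11, and ZNF613 was -0.021 with the block. The named genes' other values kept their sign.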

Other observations

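The members with the widest spread within groups were singled out after their values were seen, and they read highest of all clones in CENPU 13. ZNF320 ran from 5.35 to 7.87 among CENPU clones, with a log2 difference between groups of 0.02. ZNF280C had the largest log2 difference of the family, 1.32, without overlap of the groups, and did not pass (limma adjusted p = 0.0503). ZNF627 differed by 1.18, ZNF699 by 1.04, ZNF440 by 1.03, ZNF770 by 0.86, ZNF613 by 0.50 and ZNF681 by 0.28, and these did not pass.

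Other members, not called with all clones, were called when control 2, CENPU 7 and CENPU 13 were left out. ZNF831 was then higher by 0.52, against 0.27 with all clones. ZNF367 was -0.84, ZNF562 -0.77 and ZNF326 -0.62, against -0.51, -0.07 and 0.03 with all clones. ZNF367 was also called lower with quantile normalization, with array weights and with the span trend removed, at -0.60, -0.53 and -0.61. Whether these differences depend on the left-out clones beyond their number was not tested.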
